A study of Homo sapiens with 15 samples.

Results

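The matrix metalloproteases (MMP genes), the ADAMTS proteases, the ADAMTS-like proteins (ADAMTSL) and their tissue inhibitors (TIMP genes) were followed in a neuroblastoma line in which MSX1 was switched on. A gene was included when its only symbol in the platform annotation was MMP, ADAMTS, ADAMTSL or TIMP followed by a number. This gave 49 of the 19775 genes with a single symbol, made up of 22 MMP, 18 ADAMTS, 5 ADAMTSL and 4 TIMP genes with 104 probe sets between them. Each gene is described on its probe set with the highest mean signal over the 15 arrays.

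MMPs are zinc proteases that are made as inactive precursors and cut collagens, laminins, growth factors and cell surface proteins once their propeptide is removed. ADAMTS proteases are secreted relatives with thrombospondin repeats that hold them in the matrix, where some trim procollagens, some cut large proteoglycans such as versican, and ADAMTS13 cuts von Willebrand factor. ADAMTSL proteins share the thrombospondin repeats but lack the protease domain. TIMPs bind the active site of these enzymes, and TIMP3, which is bound to the matrix, also inhibits ADAM sheddases and several ADAMTS proteases.

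IMR32, an established human neuroblastoma line, carried an MSX1 gene that doxycycline switches on, and MSX1 encodes a homeodomain transcription factor. Total RNA was hybridised to Affymetrix arrays in 5 groups of 3 arrays, all from cells with the inducible gene: cells at t = 0, cells given doxycycline and taken at t = 8, t = 24 and t = 48 (induced cells), and cells kept without doxycycline until t = 48 (control cells). The labels give t without a unit and do not say whether the line is 1 clone or whether each replicate was its own culture. The p-values therefore cover only array-to-array spread, part of which may be technical. There are no doxycycline-treated cells without the construct and no controls at t = 8 or t = 24, so an effect of doxycycline cannot be told apart from that of MSX1, and comparisons with t = 0 also hold the time in culture. The comparisons share arrays: induced cells at t = 48 stand in 3 of the 7, and the t = 0 cells in 4.

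Signals are MAS5 intensities on a linear scale, with array medians of 18.1 to 22.6 and an equal trimmed mean on each array. A signal below the array median is low, and no detection call was used here. The MSX1 signal was 110.9 ± 13.6 at t = 0, 160.8 ± 22.1, 165.3 ± 20.7 and 83.2 ± 14.7 at the induced times t = 8, t = 24 and t = 48, and 50.7 ± 4.52 in control cells at t = 48 (SD, n = 3 each). MSX1 was higher in induced than in control cells at t = 48 (log2 fold change 0.65, limma adjusted p 0.0163) and at t = 24 than at t = 0 (0.55, adjusted p 0.0299). Its value at t = 8 against t = 0 was 0.51 (adjusted p 0.128). At t = 48 its mean in the cells labelled as induced lay below that at t = 0, though this difference was not called (-0.40, adjusted p 0.0775). Control cells at t = 48 were lower than t = 0 (-1.05, adjusted p 0.00500). The hybridisation control bioC read 122.2 to 138.5 on 2 arrays, replicate 1 of induced t = 24 and replicate 3 of induced t = 48, against 495.2 to 600.4 on the others. A control probe set for 18S ribosomal RNA read 703.6 on replicate 3 of t = 0, against 69.1 to 178.1 on the other arrays. Of 10 adrenergic neuroblastoma markers, 9 were found and 8 passed the filter described below, while TH, the first enzyme of catecholamine synthesis, was below the median on every array. Summed marker signals were 45.4 to 100.7 for blood and endothelial cells, 14 to 56.4 for epithelium and 9.7 to 57.9 for Schwann cells. Of these markers 4 of 6, 3 of 5 and 2 of 3 were low on every array (PTPRC, LYZ, CDH5, VWF, KRT19, CDH1, KRT5, S100B and SOX10). PECAM1, KRT18 and ERBB3 reached 42.1, 41 and 52.1 on single arrays.

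Of the 49 genes, 30 passed the filter, which asked for a signal at or above the array median on at least 3 of the 15 arrays: 10 MMP, 15 ADAMTS, 2 ADAMTSL and 3 TIMP genes. The 19 that did not pass were MMP1, MMP3, MMP7, MMP8, MMP10, MMP12, MMP13, MMP15, MMP20, MMP21, MMP26, MMP27, ADAMTS3, ADAMTS16, ADAMTS19, ADAMTSL2, ADAMTSL3, ADAMTSL4 and TIMP4, with mean signals of 1.07 to 13.3 and no array above 22. Among them are the 9 MMP genes that lie next to each other on chromosome 11 (MMP7, MMP20, MMP27, MMP8, MMP10, MMP1, MMP3, MMP12 and MMP13). This block holds collagenases and stromelysins, though not MMP11 (stromelysin-3), which lies on chromosome 22 and passed the filter. Mean signals in this block were 1.46 to 13.3, the highest array was at 21.0, and 0 of the 9 passed. A gene could pass through 1 group alone, so counts over the genes that passed are given as descriptions. ADAMTS8 did so, through the 3 arrays of induced cells at t = 48.

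**Figure D1:**
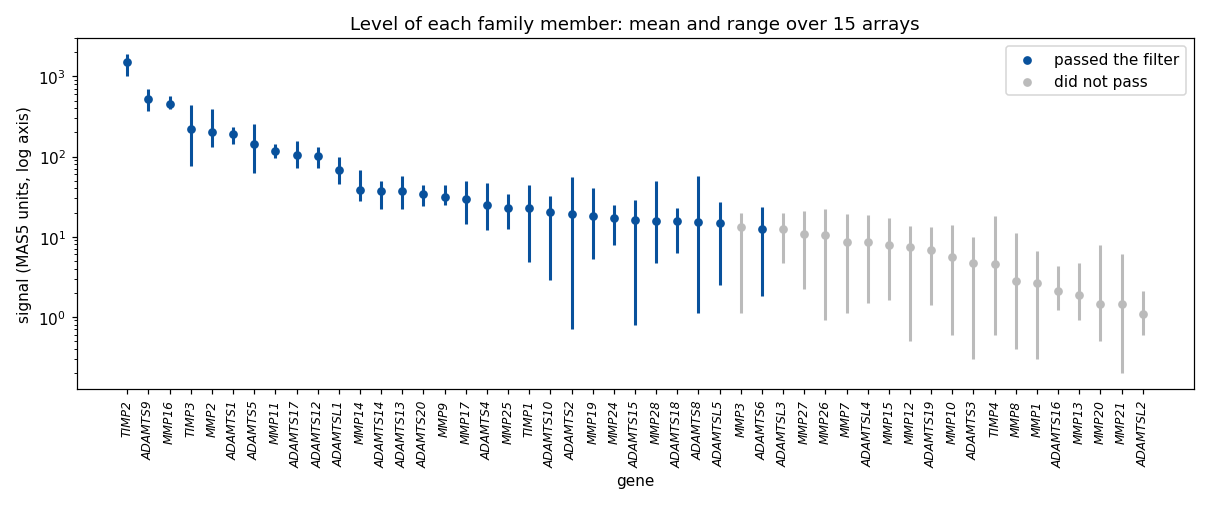
MAS5 signal of the 49 genes on a log axis, with the mean over 15 arrays as a point and the lowest to highest array as a line, in blue for the 30 genes that passed the filter and grey for the 19 that did not. Long lines on the right are low signals, and signals of different probe sets do not compare the amounts of RNA of different genes.

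Between induced and control cells at t = 48, 6 of the 30 genes were called higher (TIMP3, ADAMTS2, ADAMTS8, ADAMTS13, ADAMTS17 and MMP2) and 3 lower (ADAMTS1, ADAMTS5 and ADAMTS9), at a limma adjusted p under 0.05 over all 12868 genes tested. Over all genes tested, 5.31% were called higher and 3.29% lower in this comparison. The median log2 fold change was 0.02 over the 30 genes and -0.01 over all genes, and the 21 genes that were not called lay between -0.54 and 0.68. In every pair of groups in which a gene was called, the arrays of the 2 groups did not overlap. Some pairs without a call did not overlap either, such as ADAMTS10 in control cells over t = 0 (adjusted p 0.779). The share without overlap over all genes was not counted, and the calls rest on the same values, so this adds no support to them. In this bulk RNA, a change in the share of cells that make a transcript and a change in its level per cell cannot be told apart.

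Against t = 0, more genes were called at later induced times. At t = 8, 2 of the 30 were called higher (TIMP3 and ADAMTS17) and 2 lower (ADAMTS5 and ADAMTS9), with 1.1% and 0.995% of all genes called in these directions. At t = 24, 6 were called higher (TIMP3, MMP2, ADAMTS2, ADAMTS12, ADAMTS15 and ADAMTS17) and 1 lower (ADAMTS1), with 5.96% and 4.87% over all genes. At t = 48, where the MSX1 signal was not above that at t = 0, 9 were called higher, now also with ADAMTS8, ADAMTS13 and MMP16, and 2 lower (ADAMTS1 and TIMP2), with 9.93% and 8.2% over all genes. Over all 30 genes the median log2 fold change against t = 0 was 0.03 at t = 8, -0.12 at t = 24 and 0.11 at t = 48, against 0.01, -0.01 and -0.02 over all genes tested. The F-test over the 3 induced times called 14 of the 30, against 20.2% of all genes, and these 14 are described one by one below with all 4 TIMP genes. Control cells at t = 48 differed from t = 0 in 1 gene, ADAMTS9, called higher (5 higher and 1 lower at an unadjusted p under 0.05), with 0.482% of all genes called higher and 0.365% lower.

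Successive induced times were also compared. From t = 8, 6 genes were called higher at t = 24 (MMP2, ADAMTS2, ADAMTS5, ADAMTS9, ADAMTS17 and ADAMTSL1) and 0 lower by limma (3 lower at an unadjusted p under 0.05), with 3.46% and 2.84% of all genes called. From t = 24, 2 were called higher at t = 48 (TIMP3 and ADAMTS8) and 2 lower (MMP2 and TIMP2), with 2.42% and 1.62% over all genes.

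**Figure D2:**
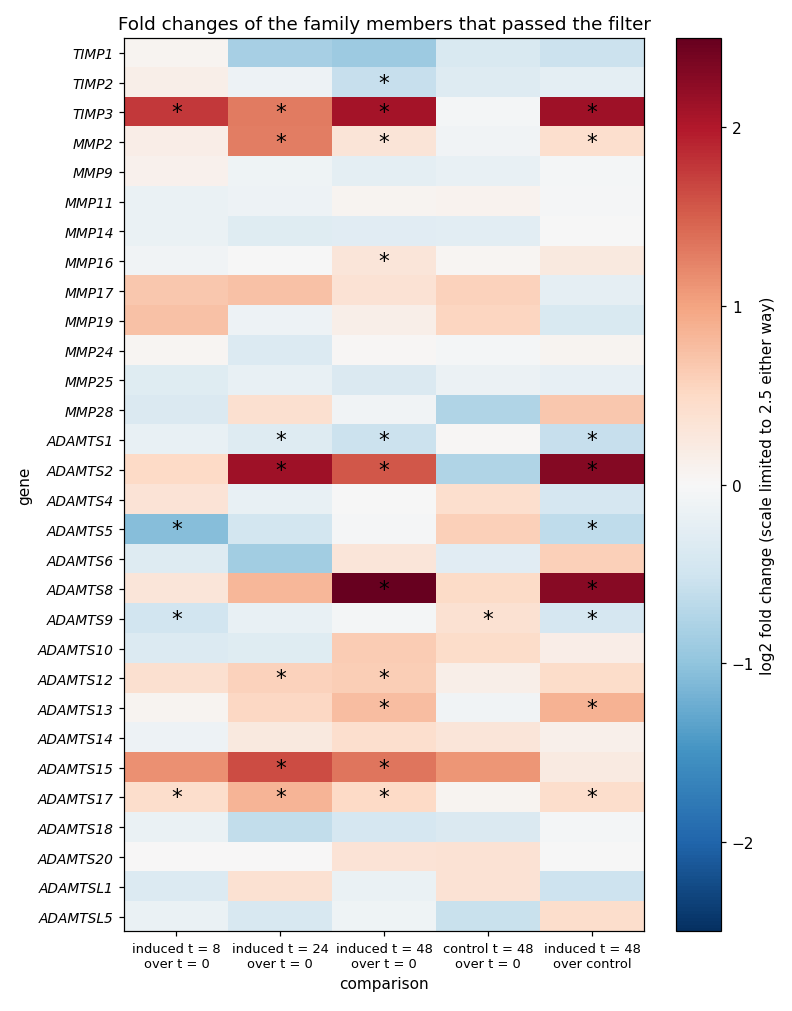
Log2 fold changes on the log2(signal + 5.16) scale for the 30 genes that passed the filter (rows) in 5 comparisons (columns), red for higher and blue for lower in the group named first, with an asterisk where the limma adjusted p was under 0.05. TIMP3 is red in every comparison of induced cells and near white in control cells over t = 0, and the colour scale ends at 2.5, which ADAMTS8 passes at t = 48 over t = 0 (2.75).

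Promoter windows of 300 bases (250 before to 50 after the start of the gene) from RefSeq on GRCh38.p14 were used here for 30 of the 49 genes, of which 16 passed the filter and 6 were called (TIMP3, ADAMTS2, ADAMTS12, ADAMTS13, ADAMTS17 and ADAMTSL1). Of these 6, the 4 with the largest change in any comparison are shown, so that their start regions can be read beside their values. The other 8 called genes, ADAMTS1, ADAMTS5, ADAMTS8, ADAMTS9, ADAMTS15, MMP2, MMP16 and TIMP2, had no matching window. Several of them had larger changes than ADAMTS13 and ADAMTS17. The TIMP3 window is chr22:32801455-32801754 on the plus strand, ADAMTS2 is chr5:179345412-179345711 on the minus strand, ADAMTS13 is chr9:133422117-133422416 on the plus strand and ADAMTS17 is chr15:100341926-100342225 on the minus strand. Each reads 5′ to 3′ along the gene, with capitals for the motifs searched.
TIMP3 promoter: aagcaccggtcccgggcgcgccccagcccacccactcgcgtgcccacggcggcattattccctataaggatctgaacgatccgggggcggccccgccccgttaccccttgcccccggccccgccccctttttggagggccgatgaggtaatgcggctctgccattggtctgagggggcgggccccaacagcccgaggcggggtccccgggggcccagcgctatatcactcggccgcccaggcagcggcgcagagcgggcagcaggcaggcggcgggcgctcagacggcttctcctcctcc
ADAMTS2 promoter: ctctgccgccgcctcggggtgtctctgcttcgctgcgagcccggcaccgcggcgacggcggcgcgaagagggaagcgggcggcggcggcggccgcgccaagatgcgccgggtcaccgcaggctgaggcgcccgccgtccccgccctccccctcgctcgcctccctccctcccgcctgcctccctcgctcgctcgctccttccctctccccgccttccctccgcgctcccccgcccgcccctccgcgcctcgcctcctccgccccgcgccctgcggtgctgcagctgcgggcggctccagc
ADAMTS13 promoter: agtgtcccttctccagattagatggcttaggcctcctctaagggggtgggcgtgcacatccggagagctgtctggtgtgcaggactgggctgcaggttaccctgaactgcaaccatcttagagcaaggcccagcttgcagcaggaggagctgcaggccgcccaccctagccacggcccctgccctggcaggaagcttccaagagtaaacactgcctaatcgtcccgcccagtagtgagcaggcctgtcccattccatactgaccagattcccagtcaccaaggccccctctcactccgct
ADAMTS17 promoter: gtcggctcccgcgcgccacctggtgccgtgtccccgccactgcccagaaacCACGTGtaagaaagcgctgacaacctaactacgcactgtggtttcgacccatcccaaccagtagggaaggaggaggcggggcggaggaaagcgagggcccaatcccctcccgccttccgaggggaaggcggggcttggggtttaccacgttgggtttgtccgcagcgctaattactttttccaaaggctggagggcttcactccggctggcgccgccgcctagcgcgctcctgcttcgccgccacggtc
Motifs were searched on both strands: TAATTG, a core that MSX proteins bind and that reads CAATTA on the other strand, CACGTG, the E-box of MYC proteins, and TGANTCA, the AP-1 element known from MMP promoters. TAATTG was found in 1 of the 30 windows (MMP14) and in 0 of the 6 of called genes, against 7.38% of 35116 windows. CACGTG was in 3 of the 30, among the called genes only in the ADAMTS17 window shown, and in 7.26% of all. TGANTCA was in 4 of the 30, among the called genes in ADAMTS12, and in 7.71% of all. The windows shown for TIMP3, ADAMTS2 and ADAMTS13 hold none of these letters, which describes the windows alone.

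Among the inhibitors, TIMP3 rose at every induced time and TIMP2 fell late. TIMP3 had signals of 90.5, 80.7 and 93.6 at t = 0, then 299.5, 270.0 and 382.2 at t = 8, 261.9, 191.8 and 227.6 at t = 24, and 372.6, 362.8 and 437.9 at t = 48 in induced cells, with 96.8, 85.2 and 75.1 in control cells at t = 48. All 9 induced arrays were above all 6 others, and control cells at t = 48 sat at the level of t = 0. At t = 48 the mean was 391.1 ± 40.8 with induction and 85.7 ± 10.9 in control cells (SD, n = 3 each), a log2 fold change of 2.13 (SE 0.15, limma adjusted p 2.80e-06), or 4.37-fold on the log2(signal + 5.16) scale. Against t = 0 the log2 fold change was 1.77 at t = 8, 1.31 at t = 24 and 2.08 at t = 48, with adjusted p of 4.18e-05, 0.000107 and 2.12e-06. These 4 calls held under all 25 alternative settings. The settings vary the offset, scaling, filter, rule for the brightest probe set, fit and arrays. Further probe sets are given apart.

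TIMP3 has 3 further probe sets, all of which passed the filter. They gave log2 fold changes of 1.05, 1.58 and 1.30 in induced over control cells at t = 48, each with an adjusted p under 0.05 over probe sets. On the brightest probe set TIMP3 gained between t = 24 and t = 48 (0.78, SE 0.15, adjusted p 0.00828), while the others gave -0.09, -0.03 and 0.21, none with an adjusted p under 0.05 over probe sets. The later step thus rests on the choice of probe set.

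TIMP2, an inhibitor that also takes part in the activation of pro-MMP2 at the cell surface, had 1708.2, 1634.1 and 1714.9 at t = 0, 1912.6, 1803.6 and 1905.9 at t = 8, 1695.3, 1454.3 and 1488.7 at t = 24, and 1011.6, 1155.8 and 1249.9 at t = 48 in induced cells, with 1499.0, 1266.9 and 1261.0 in control cells at t = 48. The 3 induced arrays at t = 48 were the lowest of all 15, though control cells at t = 48 also lay below t = 0. TIMP2 fell at t = 48 against t = 0 (-0.57, SE 0.10, adjusted p 0.00193) and against t = 24 (-0.44, adjusted p 0.0220), and the value against control was -0.24 (adjusted p 0.165). The third TIMP2 probe set gave -0.66 against control (adjusted p 0.0103 over probe sets), and the second -0.19. The step from t = 24 lost its call without induced t = 24 replicate 1 or 3 or without induced t = 48 replicate 1 or 2 (-0.47 to -0.36, adjusted p 0.0528 to 0.0973).

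TIMP1, a soluble inhibitor of most MMPs, was at or above the array median on 10 of the 15 arrays, and TIMP4 was low on all of them. TIMP1 had 32.2, 37.3 and 20.1 at t = 0, 43.8, 31.4 and 20.9 at t = 8, 7.9, 20.8 and 16.3 at t = 24, and 21.0, 17.7 and 4.8 at t = 48 in induced cells, with 32.9, 20 and 13.9 in control cells at t = 48. Its groups overlapped at t = 48, and the log2 fold change of induced over control cells was -0.54 (SE 0.40, adjusted p 0.446). TIMP4 did not pass the filter, with a highest signal of 18 on 1 array at t = 0.

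**Figure D3:**
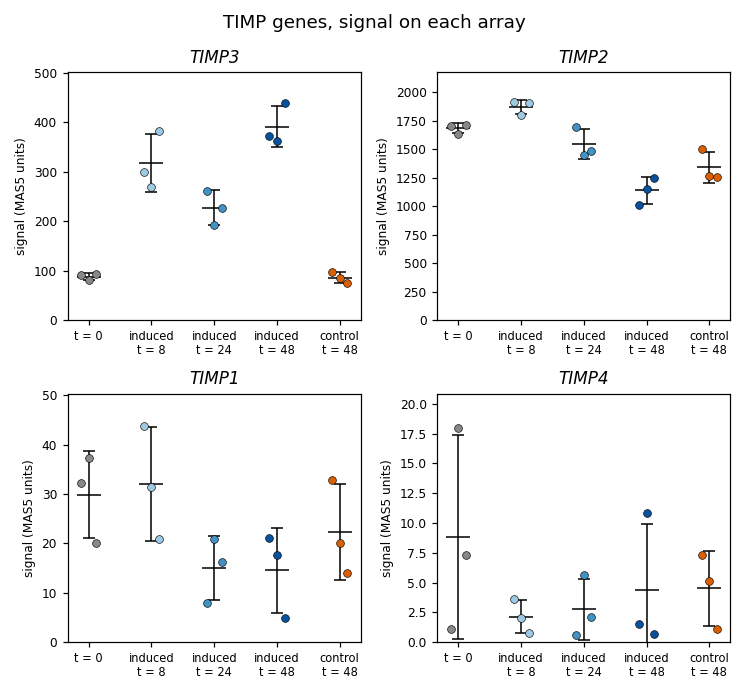
MAS5 signal of the 4 TIMP genes on each array (points) with the group mean and SD (bar and whiskers, n = 3), at t = 0, in induced cells at t = 8, 24 and 48, and in control cells at t = 48. All 9 induced arrays of TIMP3 lie above the 6 others, TIMP2 is lowest in induced cells at t = 48, and the groups of TIMP1 and TIMP4 mostly overlap.

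MMP2 and MMP16 were the MMP genes called. MMP2 (gelatinase A, which cuts type IV collagen and denatured collagens) had 160.6, 136.7 and 144.2 at t = 0, 164.9, 176.6 and 152.2 at t = 8, 337.1, 360.8 and 395.8 at t = 24, and 202.0, 190.1 and 166.2 at t = 48 in induced cells, with 132.5, 137.5 and 144.1 in control cells at t = 48. The t = 24 arrays stood apart from all others, and the t = 48 induced arrays were above both control and t = 0 arrays by a smaller margin. MMP2 rose at t = 24 against t = 0 (1.28, SE 0.10, adjusted p 4.37e-06) and against t = 8 (1.12, adjusted p 5.80e-05), then fell at t = 48 against t = 24 (-0.95, adjusted p 9.00e-05). These 3 calls held under all 25 alternative settings. The second MMP2 probe set, which did not pass the filter and had group means of 6.60 to 20.2, gave -1.20 at t = 24 against t = 0 and -0.98 against t = 8.

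At t = 48, MMP2 averaged 186.1 ± 18.2 in induced cells and 138.0 ± 5.82 in control cells (log2 fold change 0.41, SE 0.10, adjusted p 0.02), and against t = 0 the value was 0.33 (adjusted p 0.0354). Both lost their call when arrays were scaled to the same median. The first lost it without induced t = 48 replicate 1 or 2 or control replicate 1 or 2 (0.35 to 0.41, adjusted p 0.0632 to 0.0731). The second lost it without induced t = 48 replicate 1 or 2 or t = 0 replicate 2 or 3 (0.27 to 0.31, adjusted p 0.0906 to 0.117).

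MMP16, a membrane-anchored protease that can activate pro-MMP2, had 409.9, 451.3 and 452.1 at t = 0, 394.0, 418.6 and 413.3 at t = 8, 495.2, 409.8 and 398.8 at t = 24, and 519.0, 574.3 and 523.9 at t = 48 in induced cells, with 451.4, 446.9 and 462.5 in control cells at t = 48. The t = 48 induced arrays were the highest of the 15. MMP16 rose at t = 48 against t = 0 (0.30, SE 0.09, adjusted p 0.0343), and the value against control was 0.25 (adjusted p 0.110). Leaving out any 1 of the 6 arrays compared ended the call against t = 0 (0.25 to 0.32, adjusted p 0.0502 to 0.115). The further MMP16 probe sets, which all passed the filter, gave 0.44, -0.06, 0.21 and 0.38 for this comparison. Their adjusted p over probe sets was 0.211 to 0.898, and that of the brightest was 0.0526.

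The remaining 8 MMP genes that passed were called in no comparison. MMP11 (stromelysin-3) had group means of 120.5 at t = 0, 106.8, 109.8 and 127.5 in induced cells and 129.2 in control cells, with -0.03 for induced over control cells at t = 48. MMP14, the membrane-anchored activator of pro-MMP2, had group means of 34.7 to 46.2 and a value of -0.02 for the same comparison. MMP9 (gelatinase B) had -0.05. MMP24 (a membrane-type MMP) had 0.06 on its brightest probe set, while its second, which did not pass the filter, averaged 23.2 with induction and 3.53 in control cells at t = 48.

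The procollagen N-proteinase gene ADAMTS2 and the proteoglycan-cutting ADAMTS8 rose at low signals. ADAMTS2 had 20.8, 2.3 and 2.5 at t = 0, 7.9, 14.9 and 10.7 at t = 8, 55.1, 35.6 and 44.6 at t = 24, and 29.3, 27.3 and 28.1 at t = 48 in induced cells, with 1.3, 3.0 and 0.7 in control cells at t = 48. The arrays at t = 24 and t = 48 were above all others, and 1 array at t = 0 stood far above the other 2 of its group. ADAMTS2 rose at t = 48 against control (2.30, SE 0.38, adjusted p 0.00236), with means of 28.2 ± 1.01 when induced and 1.67 ± 1.19 in control cells, and at t = 24 against t = 0 (2.12, adjusted p 0.00338). It also rose at t = 48 against t = 0 (1.55, adjusted p 0.0141) and at t = 24 against t = 8 (1.63, adjusted p 0.0256).

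The control signals of ADAMTS2 are under the lower quartile of their arrays, so the size of its change depends on the offset added before the logarithm: induced over control at t = 48 gave 3.55 with an offset of 1 and 1.15 with an offset of the mean array median. The second ADAMTS2 probe set gave 0.62 (adjusted p 0.511) there and 0.76 (adjusted p 0.403) at t = 24 against t = 0. It gave 0.06 (adjusted p 0.956) at t = 48 against t = 0 and 0.96 (adjusted p 0.320) at t = 24 against t = 8. With the compared groups fitted alone, the calls at t = 24 and t = 48 against t = 0 were lost (adjusted p 0.0721 and 0.0934). Without t = 0 replicate 2 or 3, ADAMTS2 at t = 48 against t = 0 lost its call (1.24 and 1.26, adjusted p 0.0593 and 0.0577). The step from t = 8 to t = 24 lost it without replicate 1 or 3 of either group (1.48 to 1.62, adjusted p 0.0646 to 0.0948).

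ADAMTS8 had 1.1, 4.6 and 3.8 at t = 0, 5.2, 5.3 and 4.3 at t = 8, 17.8, 12 and 2.7 at t = 24, and 57.5, 45.1 and 47.8 at t = 48 in induced cells, with 2.7, 7.1 and 10.3 in control cells at t = 48. The signals were above the array medians in induced cells at t = 48 only. The gene passed the filter through these 3 arrays, so its calls among the filtered genes are no test of that group. With no filter, in a fit of every gene with a single symbol, ADAMTS8 was higher there than in control cells (50.1 ± 6.52 and 6.70 ± 3.82, log2 fold change 2.27, adjusted p 0.00280), than at t = 0 (2.75, adjusted p 0.000480) and than at t = 24 (1.92, adjusted p 0.0118). With offsets of 1 and of the mean array median the value against control was 2.87 and 1.40. The second ADAMTS8 probe set, which did not pass the filter, gave 1.12 against control and 1.42 against t = 0 at t = 48. At t = 24 against t = 0 the value was 0.83 (adjusted p 0.139), and without the lowest array at t = 24, replicate 3, it was 1.28 (adjusted p 0.0123).

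ADAMTS15, another protease that cuts versican, is the next gene to ADAMTS8 on chromosome 11. It had 0.8, 5.0 and 8.8 at t = 0, 19.4, 16.8 and 11.7 at t = 8, 28.7, 22.9 and 21.4 at t = 24, and 29.0, 12.9 and 17.0 at t = 48 in induced cells, with 23, 12.1 and 12.2 in control cells at t = 48. Every array after t = 0 was above the t = 0 arrays, control cells included, and induced and control cells overlapped at t = 48. ADAMTS15 rose against t = 0 at t = 24 (1.63, SE 0.31, adjusted p 0.00534) and at t = 48 (1.34, adjusted p 0.0114), while induced over control cells at t = 48 gave 0.23 (adjusted p 0.698) and control cells over t = 0 gave 1.11 (adjusted p 0.159). ADAMTS15 reached the array median on 5 arrays, among them every array at induced t = 24, and would not have passed the filter without these. Its t = 24 call among the filtered genes is thus no test of that group. With no filter, both calls against t = 0 were kept. The value at t = 24 was 2.41 and 0.84 with offsets of 1 and of the mean array median. The second ADAMTS15 probe set did not pass the filter and gave -0.03 at both times.

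ADAMTS17 and ADAMTS12 rose by smaller amounts. ADAMTS17, known for eye and skeletal disease and for its link to fibrillin, had 72.6, 86.9 and 75.0 at t = 0, 112.4, 107.8 and 103.6 at t = 8, 148.7, 127.7 and 156.4 at t = 24, and 107.6, 110.1 and 117.8 at t = 48 in induced cells, with 84.9, 76.9 and 83.2 in control cells at t = 48. All 9 induced arrays were above the 6 others. Against t = 0 it rose at t = 8 (0.44, SE 0.09, adjusted p 0.0251), t = 24 (0.84, adjusted p 8.25e-05) and t = 48 (0.49, adjusted p 0.00312), and against control at t = 48 (0.43, adjusted p 0.0119). The step between t = 8 and t = 24 was called too (0.40, adjusted p 0.0248).

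The ADAMTS17 calls at t = 24 and t = 48 against t = 0 held under all 25 alternatives, and the other 3 were lost when arrays were scaled to the same median. The second ADAMTS17 probe set gave 0.73 at t = 24 against t = 0 (adjusted p 0.0249), but 0.22 at t = 8 (adjusted p 0.854), 0.53 at t = 48 (adjusted p 0.0637) and 0.36 against control (adjusted p 0.253). The third gave -0.01, 0.29 and 0.06 at the 3 times and 0.52 against control, none with an adjusted p under 0.05. The call against control was lost without control replicate 2 or induced replicate 3 (both 0.39, adjusted p 0.0555 and 0.0511). The call at t = 8 against t = 0 was lost without any induced t = 8 array or t = 0 replicate 1 or 3 (0.40 to 0.47, adjusted p up to 0.111). The step from t = 8 to t = 24 was lost without any t = 8 array or t = 24 replicate 1 or 3 (0.34 to 0.43, adjusted p up to 0.0838).

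ADAMTS12, known to cut cartilage oligomeric matrix protein, had 76.8, 73.0 and 81.2 at t = 0, 121.0, 112.7 and 80.6 at t = 8, 116.2, 132.8 and 105.5 at t = 24, and 132.3, 119.1 and 111.0 at t = 48 in induced cells, with 101.9, 71.5 and 87.3 in control cells at t = 48. It rose against t = 0 at t = 24 (0.58, SE 0.15, adjusted p 0.0296) and t = 48 (0.61, adjusted p 0.0163), and gave 0.46 against control (adjusted p 0.0874). The second ADAMTS12 probe set gave 0.14 and -0.61 for the same times, neither with an adjusted p under 0.05. The t = 24 call was lost without any t = 0 array or t = 24 replicate 1 or 2 (0.50 to 0.62, adjusted p up to 0.0978). The t = 48 call was lost without t = 0 replicate 2 or induced t = 48 replicate 1 (0.58 and 0.55, adjusted p 0.0545 and 0.0539).

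ADAMTS13, which the liver makes and which cuts von Willebrand factor in blood, had 33.9, 25.6 and 27.5 at t = 0, 34.0, 33.7 and 24.1 at t = 8, 57.5, 39.7 and 36.1 at t = 24, and 47.0, 55.4 and 57.6 at t = 48 in induced cells, with 21.9, 26.1 and 33.9 in control cells at t = 48. It was higher at t = 48 in induced than in control cells (53.3 ± 5.59 and 27.3 ± 6.09, log2 fold change 0.86, SE 0.18, adjusted p 0.0117) and than at t = 0 (0.78, adjusted p 0.0117). The second ADAMTS13 probe set, which also passed the filter, gave -0.38 and -0.53 for these comparisons (adjusted p 0.562 and 0.321), so the probe sets of the gene differed in direction. The call against control was lost without control replicate 1 (0.74, adjusted p 0.0532).

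**Figure D4:**
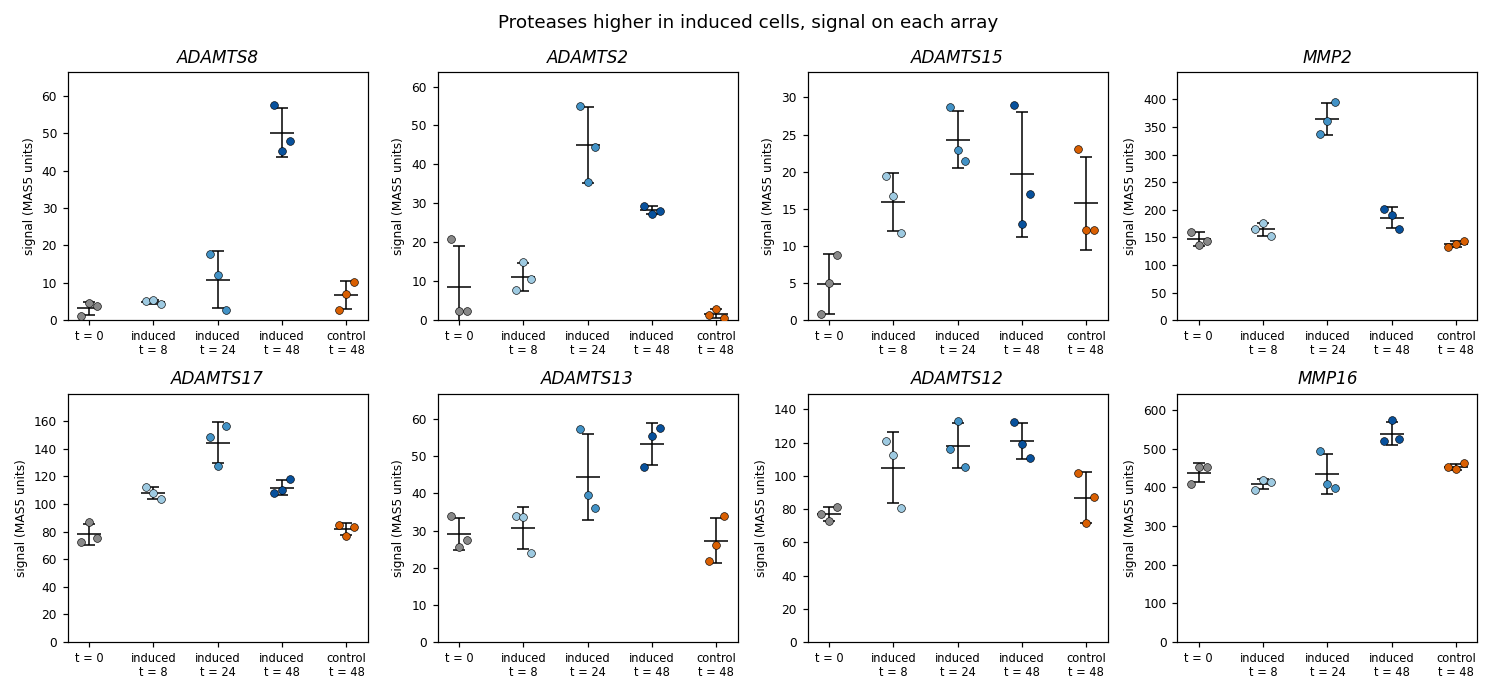
MAS5 signal on each array (points), with the group mean and SD (bar and whiskers, n = 3), for the 8 proteases called higher in induced cells in at least 1 comparison with t = 0 or control. MMP2, ADAMTS2 and ADAMTS17 have their highest means at t = 24, ADAMTS8 stands out at t = 48 only, and ADAMTS15 is also above t = 0 in control cells.

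ADAMTS1, ADAMTS5 and ADAMTS9, which cut versican and aggrecan, were the 3 proteases lower in induced than in control cells at t = 48. ADAMTS1 had 209.6, 231.2 and 222.2 at t = 0, 186.7, 185.2 and 205.5 at t = 8, 164.6, 171.0 and 190.2 at t = 24, and 144.6, 149.5 and 158.4 at t = 48 in induced cells, with 235.6, 232.8 and 212.2 in control cells at t = 48. Its group mean was lower at each later induced time, and control cells overlapped the t = 0 arrays. ADAMTS1 fell at t = 48 against control (150.8 ± 7 and 226.9 ± 12.8, log2 fold change -0.57, SE 0.08, adjusted p 0.000750) and against t = 0 (-0.54, adjusted p 0.000792), and both calls held under all 25 alternatives. At t = 24 it fell against t = 0 (-0.33, adjusted p 0.0213), a call lost without t = 0 replicate 2 or 3 or t = 24 replicate 1 or 2 (-0.32 to -0.28, adjusted p 0.0626 to 0.0769). The second ADAMTS1 probe set gave -0.46 against control (adjusted p 0.0267).

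ADAMTS5, the neighbour of ADAMTS1 on chromosome 21 and like it a cutter of aggrecan, had 133.1, 148.6 and 170.3 at t = 0, 83.8, 61.8 and 64.4 at t = 8, 113.0, 118.2 and 95.3 at t = 24, and 117.2, 150.5 and 175.6 at t = 48 in induced cells, with 192.8, 253.5 and 247.3 in control cells at t = 48. The lowest signals were at t = 8, induced cells at t = 48 overlapped the t = 0 arrays, and control cells at t = 48 were above all others. ADAMTS5 fell at t = 8 against t = 0 (-1.06, SE 0.17, adjusted p 0.00413), and its second probe set gave -0.97 (adjusted p 0.0109).

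At t = 48 ADAMTS5 was lower in induced than in control cells (147.8 ± 29.3 and 231.2 ± 33.4, log2 fold change -0.64, adjusted p 0.0332), beside -0.04 for induced cells and 0.60 for control cells over t = 0 (neither with an adjusted p under 0.05). The call of induced against control cells was lost without induced t = 48 replicate 1 or 2 or control replicate 2 or 3 (-0.66 to -0.48, adjusted p 0.0744 to 0.118), and the second probe set gave -0.32 (adjusted p 0.298). The third ADAMTS5 probe set gave -0.27 there (adjusted p 0.166), and called control cells higher than t = 0 (0.61, adjusted p 0.0276 over probe sets). The rise of ADAMTS5 between t = 8 and t = 24 (0.61, adjusted p 0.0499) was lost without any 1 of 11 of the 15 arrays (0.53 to 0.70, adjusted p 0.0575 to 0.147).

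ADAMTS9 had 564.5, 540.9 and 498.5 at t = 0, 382.7, 396.4 and 366.6 at t = 8, 469.2, 470.9 and 467.6 at t = 24, and 525.8, 563.1 and 469.5 at t = 48 in induced cells, with 689.0, 697.8 and 690.7 in control cells at t = 48. As for ADAMTS5, the t = 8 arrays were the lowest, and control cells at t = 48 the highest. ADAMTS9 fell at t = 8 against t = 0 (-0.48, SE 0.08, adjusted p 0.00498), and at t = 48 it was lower in induced than in control cells (519.5 ± 47.1 and 692.5 ± 4.67, log2 fold change -0.42, adjusted p 0.00557). Induced cells over t = 0 at t = 48 gave -0.04, and control cells over t = 0 were higher (0.37, adjusted p 0.0481).

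The second ADAMTS9 probe set gave -0.54 at t = 8 and -0.45 against control (adjusted p 0.00804 and 0.0106). The rest, which also passed the filter, gave -0.33 and -0.65 at t = 8 (adjusted p 0.694 and 0.545). Against control they gave -0.24 and -0.07 (adjusted p 0.486 and 0.914). On the brightest probe set, the calls at t = 8 and against control were lost when arrays were scaled to the same median. The rise of ADAMTS9 in control cells was lost without any 1 of 13 of the 15 arrays (0.32 to 0.41, adjusted p 0.0594 to 0.196). The rise between t = 8 and t = 24 (0.29, adjusted p 0.0429) was lost without any 1 of 12 (0.27 to 0.32, adjusted p 0.0513 to 0.111).

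ADAMTSL1 (punctin), a matrix protein without a protease domain, had 65.3, 56.2 and 69.2 at t = 0, 49.3, 51.6 and 45.1 at t = 8, 97.7, 79.0 and 76.5 at t = 24, and 60.2, 65.2 and 45.0 at t = 48 in induced cells, with 65.0, 98.7 and 87.0 in control cells at t = 48. It rose between t = 8 and t = 24 (0.73, SE 0.16, adjusted p 0.0198), and this was lost without induced t = 8 replicate 1 or 3 or t = 24 replicate 1 (0.62 to 0.74, adjusted p 0.0583 to 0.0821). Induced over control cells at t = 48 gave -0.51 (adjusted p 0.0696), and -0.67 (adjusted p 0.0285) without control replicate 1. The third ADAMTSL1 probe set gave -1.08 there (adjusted p 0.00846 over probe sets). Its other further probe sets that passed the filter gave -0.35 and -0.66 (adjusted p 0.270 and 0.300). Between t = 8 and t = 24 the second probe set gave 1.04 (adjusted p 0.00734). The rest that passed gave 0.32 and 0.60 (adjusted p 0.424 and 0.370). At t = 8 against t = 0 the second gave -0.96 (adjusted p 0.0141), beside -0.35 (adjusted p 0.4975) on the brightest. The rest that passed gave -0.11 and -0.83, neither with an adjusted p under 0.05.

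**Figure D5:**
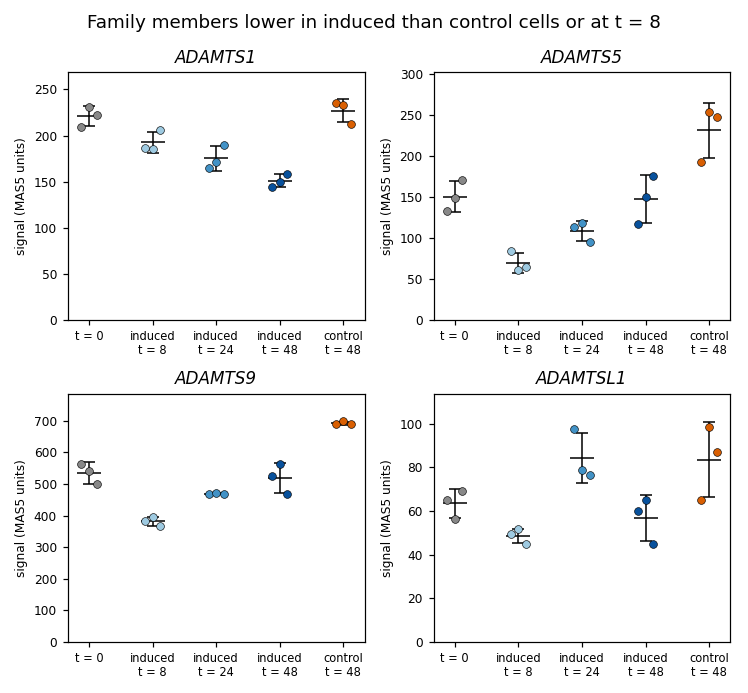
MAS5 signal on each array (points), with the group mean and SD (bar and whiskers, n = 3), for ADAMTS1, ADAMTS5, ADAMTS9 and ADAMTSL1. The mean of ADAMTS1 is lower at each later induced time, while ADAMTS5 and ADAMTS9 are lowest at t = 8 and highest in control cells at t = 48.

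In all, 16 of the 30 genes were called in no comparison, with log2 fold changes of -0.92 to 1.18 and a lowest adjusted p of 0.118. The 4 of these with the highest mean signal were MMP11, MMP14, ADAMTS14 and ADAMTS20. ADAMTS14, which trims procollagen as ADAMTS2 does, averaged 44.9 with induction and 41.4 in control cells at t = 48, with overlapping arrays. Antisense and opposite-strand transcripts (such as ADAMTS9-AS2 and MMP24OS) and the set shared by MMP23A and MMP23B are not among the 49 genes, and limma called none of their probe sets in any comparison.

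Other genes of extracellular proteolysis were read from lists chosen for their role. Of 26 regulators, with the plasminogen system, 17 were tested, and 3 rose and 1 fell in induced against control cells at t = 48, where 5.31% of all genes were called higher and 3.29% lower. They were SPOCK1, a matrix proteoglycan known to inhibit cathepsin L (607.5 and 129.5, log2 fold change 2.18), PLAT, the tissue plasminogen activator (107.6 and 51.2, 0.995), SERPINE2, an inhibitor of plasminogen activators and thrombin (608.9 and 354.5, 0.78), and PLAUR, the urokinase receptor (109.9 and 160.0, -0.53), with adjusted p of 2.19e-08, 0.000482, 0.000716 and 0.02. SPOCK1 was also called higher in control cells over t = 0 (0.56, adjusted p 0.0108). The list's median was 0.09, against -0.01 over all genes.

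Of 12 ADAM genes, 9 were tested and ADAM10, which TIMP3 can inhibit, rose at t = 48 against control (1182.0 and 823.2, log2 fold change 0.52, adjusted p 0.000407). In this list 0 were called lower (3 higher and 0 lower at an unadjusted p under 0.05), and the median was 0.09. Of 7 astacins and pappalysins, 2 were tested and PAPPA2, which cuts insulin-like growth factor binding proteins, rose (118.3 and 54.4, 1.05, adjusted p 0.00373), with 0 lower. Over all genes 5.31% were called higher and 3.29% lower in this comparison, and 1 call does not describe a list this short.

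Of 27 matrix substrates and partners, 21 were tested, and 5 rose and 0 fell by limma in induced against control cells at t = 48 (7 higher and 3 lower at an unadjusted p under 0.05), with 5.31% of all genes called higher and 3.29% lower. COL6A3 (84.6 and 4.17, log2 fold change 3.35, adjusted p 0.000174), LUM (67.8 and 7.43, 2.53, adjusted p 9.59e-06), COL3A1 (54.8 and 23.7, 1.06, adjusted p 0.0101) and FN1 (563.0 and 283.5, 0.97, adjusted p 0.000503) had the largest changes, and LAMB1 rose too. COL3A1 encodes a procollagen whose propeptide ADAMTS2 can remove, and LUM, a small leucine-rich proteoglycan, had its highest mean at t = 24 (160.0), the time at which the means of MMP2 and ADAMTS2 were highest. Against t = 0, 6 of the 21 rose and 0 fell at t = 24, and 7 rose and 0 fell at t = 48 (2 and 0 lower at an unadjusted p under 0.05), with 5.96% and 9.93% of all genes called higher, while limma called 0 in control cells (5 higher and 1 lower at an unadjusted p under 0.05). VCAN and ACAN, the versican and aggrecan that ADAMTS1, ADAMTS5 and ADAMTS9 cut, averaged 710.4 and 34.8 in induced and 789.9 and 41.7 in control cells at t = 48, with log2 fold changes of -0.17 and -0.21 (adjusted p 0.604 and 0.599). The list's median was -0.08.

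Several of these matrix genes are also fibroblast markers. The summed signal of the 10 fibroblast markers ranged from 1291.7 to 1432.5 at t = 0, 1721.7 to 1904.1 at t = 8, 2546.6 to 2597.7 at t = 24 and 2117.9 to 2178.2 at t = 48 in induced cells, and from 1578.5 to 1688.6 in control cells at t = 48. The largest signals in the sum were those of PDGFRA and COL1A1 (1193.7 and 622.7 in induced cells at t = 48). Of these markers 9 were tested, and LUM, PDGFRA and COL3A1 rose in induced against control cells at t = 48, with 0 called lower. Of all genes, 5.31% were called higher and 3.29% lower, and the list's median was -0.04. THY1 averaged 74.3 in induced and 94.1 in control cells, ACTA2 42.4 and 52.7, and TAGLN 23.8 and 25.0. DCN, a defining fibroblast gene, averaged 18.6 in induced and 21.5 in control cells, near the array medians, and COL1A2 averaged 8.60 and 12.9, below them. KDR, an endothelial receptor, was called higher at t = 24 than at t = 0 (27.6 and 9.70, log2 fold change 1.17, adjusted p 0.0294). The part of these markers in the changes of MMP2, ADAMTS2, TIMP3 and the other genes was not tested. The 3′ to 5′ ratio of ACTB probes, a sign of RNA quality, was 1.27 to 1.52 on induced and 1.22 to 1.31 on control arrays at t = 48, and its part was not tested either.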

How the data were processed

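IMR32 cells with inducible MSX1 were measured on 15 arrays in 5 groups of 3, as the labels give them. The deposited table holds intensities on a linear scale, which the authors made in GCOS by MAS5, per the submitters' processing notes. Versions and settings are not given in the sources used here. Of 54675 probe sets, 62 were array controls, 41091 had 1 symbol in the platform annotation, 1801 several and 11721 were not listed. Precision is limited by the 3 arrays a group.

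Each gene was read on its probe set with the highest mean signal. An offset of 5.16 (the mean lower quartile of the arrays) was added before log2, so fold changes of low signals are understated. Genes had to reach the array median on 3 of 15 arrays, which left 12868. They were compared by the two-sided moderated test of limma (version 3.58.1, R 4.3.3), fitted to 5 group means with 1 estimate of the spread over all arrays, with Benjamini-Hochberg adjustment over all 12868 genes and a threshold of 0.05. Adjusted p-values of further probe sets were taken over all probe sets that passed. The code was tested on simulated data. Alternatives were other offsets, scalings, filters and probe sets, a replicate block, the compared groups only, and leaving out arrays.

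The genes and lists were chosen with earlier results of these data known. Genes called in any comparison, all TIMP genes, the 4 brightest uncalled genes and up to 4 called genes a list were named; MMP9, MMP24 and the set shared by MMP23A and MMP23B were named after their values were seen. Promoter windows came from RefSeq, GRCh38.p14. No 2 arrays were alike (highest correlation 0.979). Figures were drawn with matplotlib 3.10.9.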

Additional observations from a re-analysis of the deposited data

How the results depend on the processing

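Of 42 calls of 14 family genes, 17 were kept under all 25 alternatives of offset, scaling, filter, rule for the brightest probe set, fit and left-out array, 25 were lost under at least 1, and 0 changed sign. The 17 include calls of ADAMTS8 at t = 48 and of ADAMTS15 at t = 24. These genes passed the filter through the arrays of those groups, so the count is a description. The second-brightest probe set is not among the 25. It passed the filter for 32 of the 42 calls. There it kept 15 (8 of the 17), left 13 with the same sign but no call, and turned the sign of 4, none then past the threshold: ADAMTS12 at t = 48 over t = 0 (-0.61), ADAMTS13 at t = 48 over control (-0.38) and over t = 0 (-0.53), and TIMP3 at t = 48 over t = 24 (-0.094). For the other 10 calls it did not pass, and had the opposite sign in 6 (4 of MMP2, 2 of ADAMTS15). Scaling arrays to the same median moved the count of called family genes at t = 48 over control to 5 (4 higher, 1 lower), against 9 (6 higher, 3 lower), at t = 8 over t = 0 to 2, against 4, in control cells over t = 0 to 0, against 1, at t = 24 over t = 8 to 1, against 6, and for the F-test to 8, against 14. The same scaling gave 5 higher and 0 lower at t = 24 over t = 0, and 2 higher and 1 lower at t = 48 over t = 24, where quantile normalization gave 2 higher and 3 lower. It moved the median over all genes by at most 0.04. Fitting the compared groups alone ended, among others, the calls of ADAMTS5 and ADAMTS9 at t = 8, ADAMTS9 at t = 48 over control, ADAMTS15 at t = 48 over t = 0, and TIMP3 and ADAMTS8 at t = 48 over t = 24 (adjusted p 0.0532 to 0.110). It gave 1 call at t = 8 over t = 0, 1 at t = 48 over t = 24, 2 at t = 24 over t = 8 and 0 in control cells. The last was also 0 with quantile normalization, with no filter and with the replicate block, and t = 24 over t = 8 had 2 calls with no filter and 2 without the arrays of weak hybridisation controls. Leaving out 1 array gave 6 to 10 family genes at t = 48 over control (6 without control replicate 2), 3 to 4 at t = 8, 5 to 8 at t = 24 and 7 to 11 at t = 48 over t = 0 (7 without t = 0 replicate 2), 0 to 1 in control cells, 1 to 6 at t = 24 over t = 8 (1 without induced t = 24 replicate 1 or t = 8 replicate 3), 3 to 5 at t = 48 over t = 24, and 11 to 14 by the F-test. The replicate block gave 8 calls at t = 48 over control, 3, 7 and 9 over t = 0 at t = 8, 24 and 48, 5 at t = 24 over t = 8, 4 at t = 48 over t = 24 and 13 by the F-test; same-numbered arrays showed no pairing (correlations of their deviations -0.28 to 0.12, no comparison above 0.1 in every pair). The causes were not tested. Signals near or under the array median, as in ADAMTS2, ADAMTS8 and ADAMTS15, leave the size of a fold change to the offset.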
